A study of Mus musculus with 12 samples.

Results

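Imprinted growth genes are read from a single parental allele, and many of them act on how large an embryo and its tissues become. The genes described here were chosen by Ensembl identifier from a list of 10 such genes, with earlier results of these libraries known, and 9 of the 10 were among the 10481 genes of the deposited table. They were H19 (ENSMUSG00000000031), Igf2 (ENSMUSG00000048583), Dlk1 (ENSMUSG00000040856), Peg3 (ENSMUSG00000002265), Cdkn1c (ENSMUSG00000037664), Grb10 (ENSMUSG00000020176), Plagl1 (ENSMUSG00000019817), Ndn (ENSMUSG00000033585) and Mest (ENSMUSG00000051855). Meg3, the maternally expressed long noncoding RNA beside Dlk1, was not analysed here. Ribosome occupancy of each gene was measured by ribosome profiling in brain and spinal cord of mouse embryos at embryonic day 14.5 (E14.5), with 3 libraries in each of 4 groups. Control embryos were Smn+/-; SMN2tg/0 and SMA embryos were Smn-/-; SMN2tg/0, both of the Taiwanese line, so that a human SMN2 transgene was present in all 12 libraries and control embryos also lacked 1 working copy of mouse Smn. The line models spinal muscular atrophy (SMA), a motor neuron disease caused by too little SMN protein, in every cell of the embryo and not in neurons alone. Each library came from whole tissue, and fewer cells of a type cannot be told apart from less RNA per cell. The measured value that selected members was the filter on low values behind the table, which a gene could pass through its level in a single condition.

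Imprinting leaves a methyl mark on the DNA of the egg or of the sperm, and the mark decides which parental copy of a nearby gene is transcribed. H19 is a noncoding RNA made from the maternal copy, and its neighbour Igf2, an insulin-like growth factor that drives fetal growth, is made from the paternal copy by way of enhancers that both genes share. Both are known to be abundant in fetal liver, yolk sac and other embryonic tissues outside the nervous system. Among the other members, Cdkn1c is an inhibitor of cyclin-dependent kinases that halts the cell cycle, Grb10 is an adaptor that dampens signalling by insulin and IGF receptors, and Plagl1 is a zinc finger factor that acts on other imprinted genes. Dlk1 is a membrane protein related to Notch ligands, Peg3 is a zinc finger protein, Ndn (necdin) is a neuronal protein of the MAGE family, and Mest is an enzyme of the hydrolase fold. Counts per gene do not separate the parental alleles, so imprinting itself was not measured.

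H19 is the host of a microRNA, and the counts of H19 cannot be divided between the host RNA and its hairpin. The mature arms of this microRNA are shown because they are the processed product known to be cut from H19, with the seed (bases 2 to 8) in capitals, as given by RefSeq on GRCm38.p6 (minus strand, chr7:142577112-142577133 for the 5p arm and chr7:142577078-142577099 for the 3p arm).
mmu-miR-675-5p: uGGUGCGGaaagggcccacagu
mmu-miR-675-3p: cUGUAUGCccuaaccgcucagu
The seeds of the 2 arms differ, so that they belong to no common seed group. No count of the mature microRNA was made, since fragments of 28 to 32 bases are longer than its 22 bases.

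Stretches upstream of the annotated start are shown for Grb10, Plagl1 and Peg3, the members whose 6 brain libraries and 6 spinal cord libraries did not overlap, with each CG in capitals because CG dinucleotides carry the methyl marks of imprinted genes. Of the 9 members, 7 had such an entry in RefSeq, and those of H19 and Cdkn1c were not analysed here. Each stretch runs 5′ to 3′ and ends where the annotated gene begins.
Grb10 (chr11:12037429-12037670, minus strand): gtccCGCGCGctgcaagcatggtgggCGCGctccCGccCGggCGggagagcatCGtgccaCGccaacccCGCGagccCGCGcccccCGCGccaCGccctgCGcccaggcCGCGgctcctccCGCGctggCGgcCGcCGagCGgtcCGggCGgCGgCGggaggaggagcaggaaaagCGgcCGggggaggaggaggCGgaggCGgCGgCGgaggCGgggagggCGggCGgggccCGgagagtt
Plagl1 (chr10:13090582-13090831, plus strand): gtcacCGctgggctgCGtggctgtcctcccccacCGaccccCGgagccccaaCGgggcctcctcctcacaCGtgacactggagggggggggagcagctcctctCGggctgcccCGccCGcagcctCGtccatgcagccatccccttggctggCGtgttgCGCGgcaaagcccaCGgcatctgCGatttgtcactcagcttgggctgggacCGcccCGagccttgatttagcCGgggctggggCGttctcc
Peg3 (chr7:6730463-6730669, minus strand): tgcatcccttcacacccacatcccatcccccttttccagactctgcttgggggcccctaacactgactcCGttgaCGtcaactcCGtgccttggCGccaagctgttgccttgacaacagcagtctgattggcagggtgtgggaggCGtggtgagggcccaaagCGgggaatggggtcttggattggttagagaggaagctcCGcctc
The stretches held 40 CG for Grb10, 19 for Plagl1 and 7 for Peg3. Over the full 250 bases before the start, the 40 CG of Grb10 were more than in 98.7% of 32851 promoter windows of the same length in RefSeq, and the 19 of Plagl1 more than in 80.3%. A further Grb10 window, inside the gene at chr11:12027972-12028221 and not shown, held 8 CG, more than in 57.0% of windows. The letters GGGGCCCC, a word that Plagl1 protein is known to bind and that reads the same on both strands, stood at bases 50 to 57 of the Peg3 stretch, in no other window of a member, and in 0.889% of all windows. Methylation and binding were not measured in these libraries.

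Of the 9 members, 5 lie on mouse chromosome 7. On GRCm38.p6 H19 lies at chr7:142575530-142578146, and Igf2 at chr7:142650768-142666816 begins 72.6 kb away. Cdkn1c is on the same chromosome at chr7:143458339-143461059, as are Peg3 at chr7:6703892-6730462 and Ndn at chr7:62348277-62349928. Dlk1 lies at chr12:109452485-109463336, Grb10 at chr11:11930499-12037428, Plagl1 at chr10:13090832-13131694 and Mest at chr6:30733506-30748466. The annotation places Igf2os inside Igf2, Peg3os inside Peg3, Hymai inside Plagl1 and a stretch of Copg2 inside Mest. It also has LOC102631979 overlapping Grb10 and Gm32061 overlapping Ndn. Whether the counting used strand was not given in the sources used here, so reads of those neighbours cannot be told apart from reads of the members.

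Library totals lay between 3683842 and 12793955 counts, and 4 libraries bear on the values that follow. SMA spinal cord library 1, control spinal cord library 3 and SMA brain library 1 had the highest summed level of liver and yolk sac genes, of which 4 of 17 on the list could be named (Apoa2, Apob, Apoc2 and Apoh). Their sum was 1072 normalized CPM (counts scaled to the effective library size) in SMA spinal cord library 1, 353 in control spinal cord library 3 and 38.5 in SMA brain library 1, against 0.488 to 28.6 in the remaining 9 libraries. Control spinal cord library 1 stood apart in another way, with 41.1 normalized CPM of Otx2 (a factor of forebrain, midbrain and choroid plexus) against 0.948 to 8.39 in the other 5 spinal cord libraries, and with 160 of Top2a (an enzyme of dividing cells) against 21.6 to 40.7. The 4 of 13 neuronal markers that could be named summed to between 3229 and 4389 normalized CPM, most of it Map2 (2384 to 3564). The others differed between the tissues in both directions. On the log2 scale, Nefl (-1.95 in control and -2.20 in SMA) and Nefm (-1.90 and -2.26) were lower in brain than in spinal cord. Elavl3 was higher in brain (0.35 and 0.32). Red blood cell genes, 3 of 17 named, summed to at most 32.6 normalized CPM, and that highest value was in SMA spinal cord library 1.

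H19 varied more between libraries of the same group than nearly every other gene. In brain its level was 3.61, 0.420 and 0.732 normalized CPM in control libraries 1, 2 and 3 and 35.0, 2.78 and 1.95 in SMA libraries 1, 2 and 3. In spinal cord it was 14.8, 6.19 and 94.5 in control libraries and 209, 5.44 and 8.02 in SMA libraries. In each group a single library stood well above the others, which in control brain was 33 counts against 2 and 3. Control and SMA overlapped in both tissues. These levels rested on 2 to 128 counts a library in brain and on 28 to 1692 in spinal cord. The 3 libraries with most H19, which were SMA spinal cord library 1, control spinal cord library 3 and SMA brain library 1, together held 88.5% of its summed level over 12 libraries. The SD within groups of log2(normalized CPM + 0.5) was 2.10 for H19, higher than that of 99.7% of 10199 genes with a mean of at least 1 normalized CPM, whose median was 0.18.

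**Figure D1:**
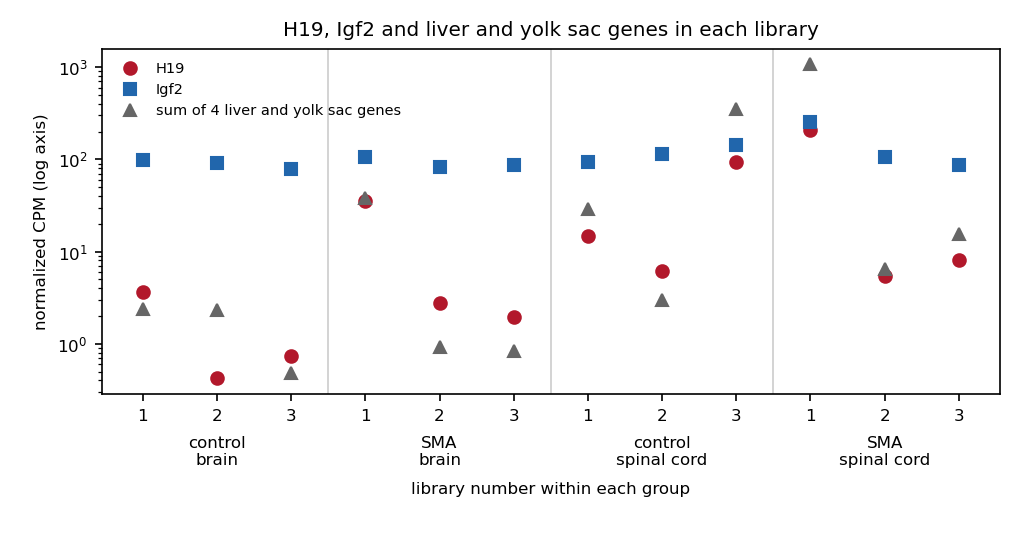
Normalized CPM (log axis) of H19, of Igf2 and of the sum of 4 liver and yolk sac genes in each of the 12 libraries, with the library number on the horizontal axis. H19 was highest in SMA spinal cord library 1 (209), control spinal cord library 3 (94.5) and SMA brain library 1 (35.0), the same 3 libraries in which the liver and yolk sac sum was highest, while Igf2 stayed between 78.6 and 254.

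The 5 named genes whose levels followed H19 most closely over the 12 libraries are known products of liver. Likeness was the root-mean-square difference of log2(normalized CPM + 0.5) after each gene was centred on its own mean, and a smaller value means a closer match. Among 10198 other genes, the nearest was a gene without a name at hand (ENSMUSG00000090231), at 0.52. The nearest of the 1965 genes with a name was Apoa2, an apolipoprotein, at 0.87. After it came Itih3 at 1.04 and Itih1 at 1.07, both heavy chains of an inhibitor made in liver, then Igfbp1, an IGF binding protein of liver, at 1.09 and Apob at 1.14. Among all 10198 genes these 5 named genes ranked 7, 28, 31, 36 and 48, and closer genes without a name, beyond the nearest, were not described. The median over genes was 2.31. These genes share the libraries and their depth with H19, and the values are a description without a test.

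Apob shows the size of the change between libraries. It was at 911 normalized CPM in SMA spinal cord library 1, at 294 in control spinal cord library 3 and at 33.6 in SMA brain library 1, and between 0.488 and 21.3 in the other 9 libraries. In each of the 4 groups, its highest library was also the highest for H19. Apoa2 had no count in control brain, and its levels in the same 3 libraries were 116, 45.3 and 3.55. Of the 4 liver and yolk sac genes, Apoa2 and Apob passed the thresholds of the study, given with the comparison of SMA with control, in brain (1.53% of all genes) and 0 did in spinal cord (0.983%). In brain both were above the control range in SMA brain library 1 alone, since Apoa2 had no count in SMA brain libraries 2 and 3 and Apob was at 0.928 and 0.558 there, against 0.488 to 2.30 in control brain. Of 34 genes of muscle and cartilage, where H19 is also known to be made, Col2a1 and Sox9 could be named, both known from cartilage, and no muscle gene was examined. Col2a1 was at 77.2 normalized CPM in SMA spinal cord library 1, at 112 in control spinal cord library 3 and at 94.3 in SMA brain library 1, within its range of 71.7 to 127 in the other 9 libraries. The part of liver or yolk sac RNA in the H19 values was not tested.

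Igf2 was the member next to H19 in its spread, though by far less. Its level was 99.3, 91.4 and 78.6 normalized CPM in control brain libraries 1, 2 and 3 and 105, 83.3 and 86.2 in SMA brain. In spinal cord it was 93.0, 113 and 144 in control and 254, 107 and 87.7 in SMA. SMA spinal cord library 1 and control spinal cord library 3, the libraries with most H19, had the highest Igf2 as well. The within-group SD of Igf2 was 0.45 on the log2 scale, higher than that of 92.3% of genes, and among the 9 members its likeness to H19 was the closest, at 1.94. The other 7 members had within-group SDs of 0.12 to 0.20, near the median gene.

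Within groups, Cdkn1c, Grb10 and Plagl1 varied far less than H19, with SDs of 0.20, 0.16 and 0.16 on the log2 scale. Cdkn1c was at 272, 264 and 308 normalized CPM in control brain, at 276, 267 and 306 in SMA brain, at 158, 235 and 199 in control spinal cord and at 194, 269 and 235 in SMA spinal cord. Grb10 was at 380.4, 401 and 355 in control brain, at 375, 385 and 319 in SMA brain, at 266, 199 and 239 in control spinal cord and at 233, 188 and 204 in SMA spinal cord. Plagl1 was at 209, 211 and 203 in control brain, at 241, 246 and 188 in SMA brain, at 127, 146 and 119 in control spinal cord and at 106, 138 and 114 in SMA spinal cord. For Grb10 and Plagl1 every brain library was above every spinal cord library, and for Cdkn1c the highest spinal cord library, SMA library 2, reached into the brain range.

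The remaining members fell into similar ranges. Dlk1 was at 384, 345 and 394 normalized CPM in control brain, at 373, 362 and 287 in SMA brain, at 219.7, 288 and 327 in control spinal cord and at 286, 272 and 273 in SMA spinal cord. Peg3 was at 229, 211 and 224 in control brain, at 193, 214 and 216 in SMA brain, at 342, 281 and 284 in control spinal cord and at 329.9, 275 and 300.5 in SMA spinal cord. Peg3 was thus the mirror of Grb10, with every spinal cord library above every brain library. Ndn was at 244, 289 and 321 in control brain, at 317, 293 and 308 in SMA brain, at 162, 185 and 210.2 in control spinal cord and at 209, 255 and 235 in SMA spinal cord. Mest was at 372, 372 and 387 in control brain, at 372, 407 and 424 in SMA brain, at 387, 249.6 and 286 in control spinal cord and at 336, 282 and 264 in SMA spinal cord. Control spinal cord library 1, the library with high Otx2 and Top2a, had the lowest Cdkn1c, Dlk1 and Ndn and the highest Grb10, Peg3 and Mest of the 6 spinal cord libraries.

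**Figure D2:**
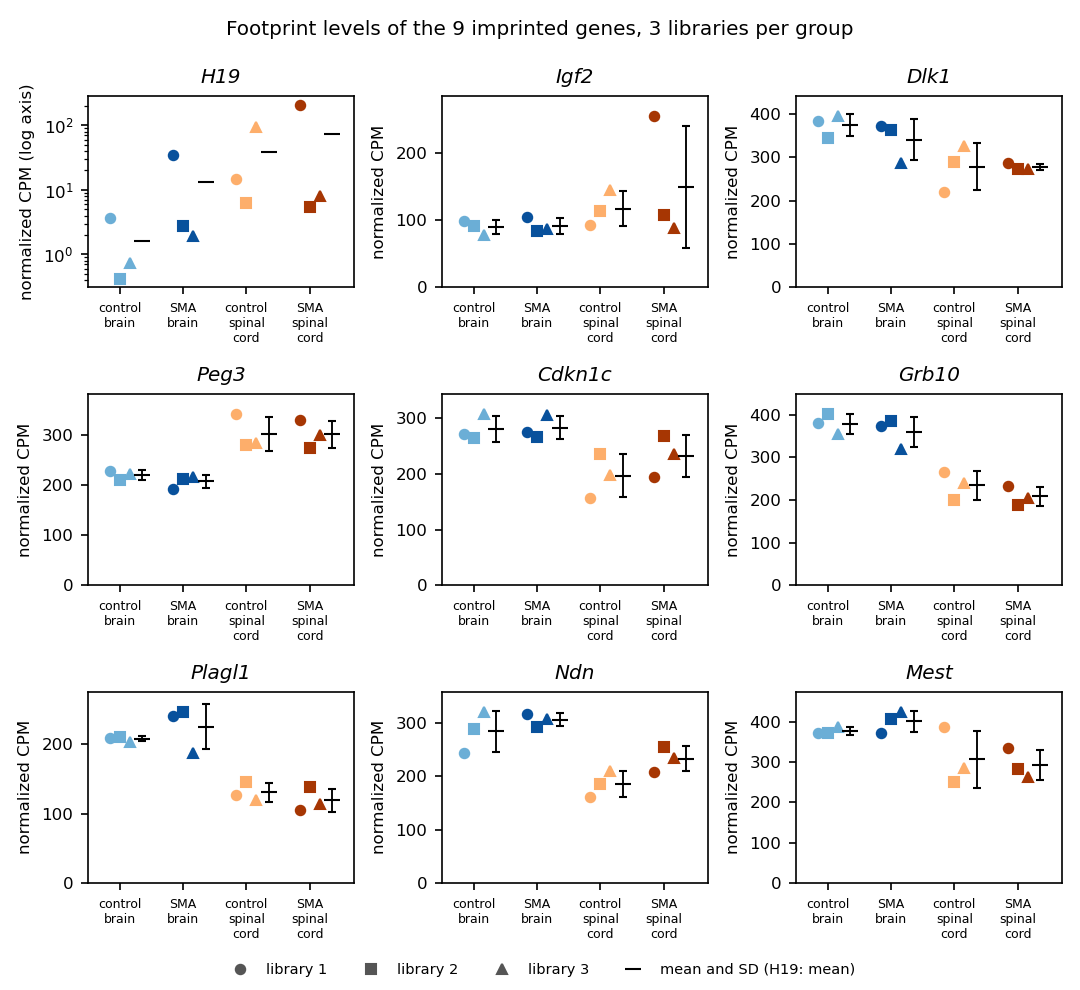
Normalized CPM of each of the 9 genes by group, with points for libraries 1, 2 and 3, and with the mean and SD at the right of each group (H19 on a log axis, mean alone). Every gene but H19 stayed within 3.23-fold over all 12 libraries, and for Grb10, Plagl1 and Peg3 the brain points and the spinal cord points did not overlap.

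The comparison of SMA with control asks whether loss of SMN changes ribosome occupancy before birth. In brain, 1 of 9 members passed the thresholds of the study (mean CPM of 0.05 or more, log2 fold change of 0.5 or more in size, and p under 0.05 before adjustment), where 1.53% of all 10481 genes did. That member was H19, with a log2 fold change of SMA over control of 2.70 ± 0.94 (SE, n = 3 and 3 libraries), an edgeR p of 0.0127 and an adjusted p of 0.902. Only SMA brain library 1 was above every control library, and the groups overlapped. Without SMA brain library 1 the log2 fold change was 0.32 ± 0.69 (SE), with an edgeR p of 0.641 and an adjusted p of 0.996. In SMA brain library 1 the liver and yolk sac sum was 38.5 normalized CPM, against 0.488 to 2.41 in the other 5 brain libraries.

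The other 8 members differed little between genotypes in brain. Their log2 fold changes lay between -0.12 for Dlk1 and 0.13 for Plagl1, with standard errors of 0.086 to 0.12, and the smallest of their edgeR p-values was 0.236, for Plagl1 (adjusted p 0.911). The 95% interval of Grb10 was -0.25 to 0.13 and that of Cdkn1c was -0.16 to 0.21 on the log2 scale. In 0 of 9 members were the libraries of the genotypes apart, where 11% of all genes were. After adjustment, edgeR called 0 members and 0 of all genes, while 529 genes (5.05%) had an unadjusted p below 0.05 and H19 was the 1 member among them.

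In spinal cord, 0 of 9 members passed the thresholds of the study, where 0.983% of all genes did. H19 had a log2 fold change of 0.97 ± 1.43 (SE, n = 3 and 3) and Igf2 of 0.35 ± 0.40 (SE), with edgeR adjusted p-values of 0.849 and 0.804. Both values turned below 0 without SMA spinal cord library 1, to -2.51 for H19 and -0.28 for Igf2, and without control spinal cord library 3 the H19 value was 2.81. With both of these libraries left out, H19 was at -0.65 ± 0.45 (SE) and Igf2 at -0.093 ± 0.17 (SE).

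Ndn was the 1 member with an unadjusted p below 0.05 in spinal cord, where 6.99% of all genes were. Its log2 fold change was 0.32 ± 0.12 (SE), with an edgeR p of 0.0344 and an adjusted p of 0.684, and the highest control library (210.2 normalized CPM) was above the lowest SMA library (209). Without control spinal cord library 1, where Ndn was lowest, the log2 fold change was 0.23 ± 0.12 (SE) and the edgeR p was 0.0938. Without SMA spinal cord library 1 and control spinal cord library 3, which had the highest liver and yolk sac sums, it was 0.49 ± 0.12 (SE), with an edgeR p of 0.00589 and an adjusted p of 0.447. The remaining 6 members lay between -0.18 for Grb10 and 0.23 for Cdkn1c, with edgeR adjusted p-values of at least 0.711. The libraries of the genotypes were apart in 0 of 9 members, where they were in 14.7% of all genes.

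**Figure D3:**
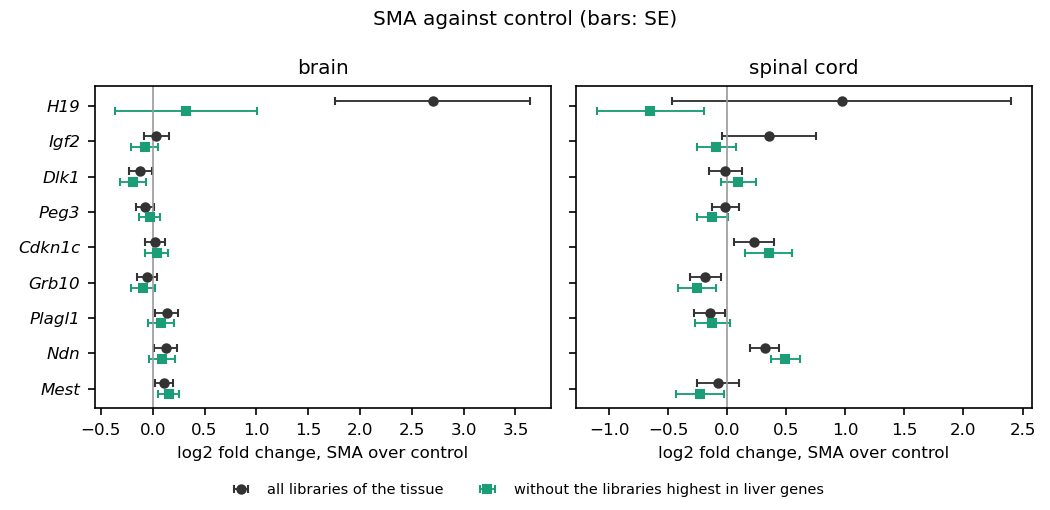
Log2 fold change of SMA over control for each gene in brain and in spinal cord, with bars for the SE, for all libraries of the tissue and without the libraries highest in liver and yolk sac genes (SMA brain library 1 in brain, SMA spinal cord library 1 and control spinal cord library 3 in spinal cord). H19 moved from 2.70 to 0.32 in brain and from 0.97 to -0.65 in spinal cord, and the other 8 genes stayed between -0.26 and 0.49 in both tissues and both settings.

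The interaction of tissue and genotype asks whether the SMA difference in spinal cord was another than that in brain. No member passed an adjusted p below 0.05 (0 of 9, and 0 of all genes), and at an unadjusted p below 0.05 there were 0 of 9 members where there were 2.38% of all genes. The interaction of H19 was -1.70 ± 2.36 (SE) on the log2 scale, so that its 95% interval ran from -6.33 to 2.93. That of Plagl1 had the smallest p among members, with -0.25 ± 0.18 (SE) and an edgeR p of 0.178 (adjusted p 1). In simulated counts, drawn with 1 spread for all genes, the same test recovered 30.5% of 200 genes changed 2-fold.

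The ratio of H19 to Igf2 compares 2 neighbouring imprinted genes, and the library total cancels in it. The parental alleles were not separated, and in control brain libraries 2 and 3 the ratio rested on 2 and 3 counts of H19. On counts per kilobase, H19 was 3.25%, 0.412% and 0.834% of Igf2 in control brain libraries 1, 2 and 3 and 29.8%, 2.99% and 2.03% in SMA brain. In spinal cord it was 14.3%, 4.89% and 58.6% in control and 73.6%, 4.56% and 8.18% in SMA. In brain SMA libraries 2 and 3 were below control library 1, and in spinal cord the ranges overlapped. The mean log2 ratio in SMA minus that in control was 2.45 in brain (exact permutation p 0.3, 2-sided) and -0.19 in spinal cord (exact permutation p 0.9), where the smallest p that 3 against 3 libraries can give is 0.1. Without SMA brain library 1 the difference in brain was 1.25.

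Differences between the tissues were larger than differences between the genotypes. In control embryos, 7 of 9 members passed an edgeR adjusted p below 0.05 for brain against spinal cord, where 38.4% of all genes did, and in SMA embryos 5 of 9 did, where 36.7% of all genes did. These comparisons use separate libraries. The libraries of the tissues were apart in 7 of 9 members in control (53.9% of all genes) and in 5 of 9 in SMA (51.9%). In control embryos 5 members were higher in brain (18.1% of all genes) and 2 were higher in spinal cord (20.4%), and in SMA embryos the numbers were 4 (17.2%) and 1 (19.5%). The median log2 fold change of brain over spinal cord over the 9 members was 0.42 in control and 0.29 in SMA, against -0.015 and -0.027 over all genes.

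Grb10 and Plagl1 were higher in brain in both genotypes. The log2 fold change of brain over spinal cord of Grb10 was 0.68 ± 0.12 (SE, n = 3 and 3) in control, with an edgeR adjusted p of 0.00332, and 0.78 ± 0.11 in SMA (adjusted p 0.00148). That of Plagl1 was 0.65 ± 0.10 in control (edgeR adjusted p 0.00186) and 0.91 ± 0.14 in SMA (adjusted p 0.00188). Ndn was also higher in brain in both, by 0.60 ± 0.14 in control (edgeR adjusted p 0.0108) and 0.39 ± 0.091 in SMA (adjusted p 0.0123). Peg3 was the 1 member higher in spinal cord in both genotypes, with log2 fold changes of -0.46 ± 0.10 in control (edgeR adjusted p 0.00857) and -0.55 ± 0.10 in SMA (adjusted p 0.00349). Grb10, Plagl1 and Peg3 passed under every left-out library in both genotypes, and Ndn in SMA had an adjusted p of at most 0.0530 under them.

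Cdkn1c, Dlk1 and Mest passed in a single genotype, and none of them had an interaction past the test. Cdkn1c was higher in brain by 0.50 ± 0.15 in control (edgeR adjusted p 0.0278), with 0.28 ± 0.12 in SMA (adjusted p 0.110). Dlk1 was higher in brain by 0.42 ± 0.14 in control (edgeR adjusted p 0.0475), with 0.29 ± 0.11 in SMA (adjusted p 0.0699). Mest was higher in brain by 0.44 ± 0.11 in SMA (edgeR adjusted p 0.0150), with 0.28 ± 0.15 in control (adjusted p 0.167). Without control spinal cord library 1, Mest in control was at 0.48 (adjusted p 0.00645), Igf2 at -0.53 (adjusted p 0.0215) and Dlk1 at 0.27 (adjusted p 0.0651). The count of members that passed in control was 4 without control brain library 2 or without control brain library 3, and 8 without control spinal cord library 1.

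H19 was lower in brain than in spinal cord in control embryos. Its log2 fold change of brain over spinal cord was -4.31 ± 1.16 (SE) in control, with an edgeR adjusted p of 0.0205 and no overlap of the libraries, and -2.59 ± 1.48 in SMA (adjusted p 0.199), where SMA brain library 1 was above SMA spinal cord libraries 2 and 3. Control brain held 2 counts of H19 in library 2 and 3 in library 3, and without either of them the adjusted p in control was above 0.05 (0.0765 and 0.0751). Without control spinal cord library 3 the log2 fold change in control was -2.47 ± 0.62 (SE, edgeR adjusted p 0.0198). Without SMA brain library 1 and SMA spinal cord library 1 it was -1.47 ± 0.38 (SE, edgeR adjusted p 0.0140) in SMA. Igf2 was at -0.39 ± 0.17 in control (edgeR adjusted p 0.0974) and at -0.73 ± 0.37 in SMA (adjusted p 0.158), and the latter was -0.090 without SMA spinal cord library 1.

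**Figure D4:**
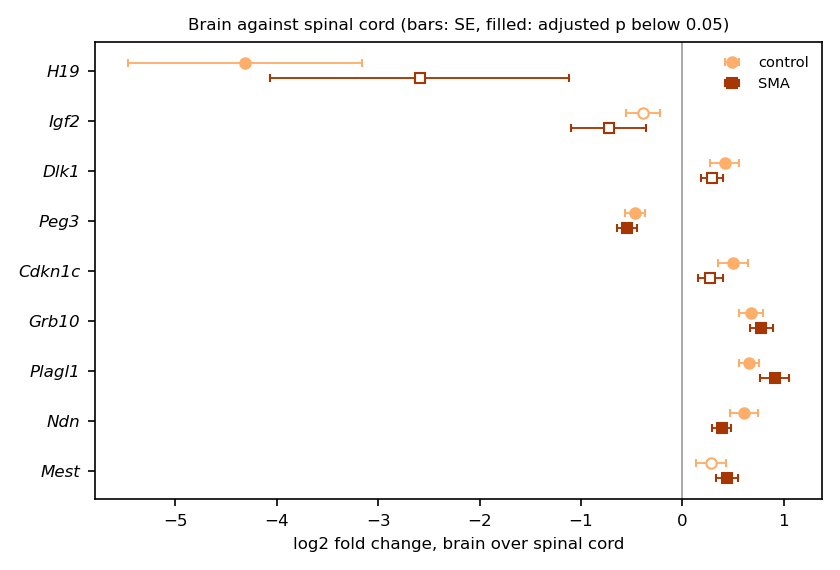
Log2 fold change of brain over spinal cord for each gene in control (circles) and SMA (squares), with bars for the SE and filled symbols for an adjusted p below 0.05. Grb10, Plagl1 and Ndn lay above 0 and Peg3 below 0 with filled symbols in both genotypes, and H19 reached -4.31 in control with the widest bars.

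Marker lists of other cell types differed between the tissues in both directions. The 6 of 31 genes of meninges, mesenchyme and mural cells that could be named had a summed level of 614 to 735 normalized CPM in brain and of 846 to 1142 in spinal cord. The 4 of 12 genes of neural progenitors summed the other way, to 915 to 1069.5 in brain and 707 to 815 in spinal cord. Their members were split, since Nes was higher in brain (log2 fold change 1.21 in control and 1.26 in SMA) and Slc1a3 lower (-1.21 and -1.52). Top2a passed as higher in brain in SMA alone, and Fabp7 in neither genotype. The 3 of 17 red blood cell genes had 6.10 to 9.30 in brain against 17.8 to 32.6 in spinal cord, and most of that gap was Sptb, a spectrin (3.78 to 5.30 against 15.0 to 21.7). Slc4a1, the anion exchanger of red blood cells, and Epor, the erythropoietin receptor, did not pass between the tissues in either genotype. For the 4 of 17 liver and yolk sac genes the ranges overlapped, at 0.488 to 38.5 and 3.0 to 1072. In control alone they were apart, at 0.488 to 2.41 in brain and 3.0 to 353 in spinal cord. Apob and Apoc2 passed as lower in brain in control, and Apoh in SMA. Sums of the 3 of 13 choroid plexus genes overlapped, at 114 to 174 in brain and 127 to 174 in spinal cord. Within them Otx2 was higher in brain (log2 fold change 2.84 in control and 4.27 in SMA) and Enpp2 lower (-1.91 and -1.98). Both passed in both genotypes, and Aqp1 in neither. The 1 of 16 genes of endothelium that could be named was at 12.1 to 25.2 in brain and at 25.3 to 31.4 in spinal cord. The part of these cells in the tissue differences of the members was not tested.

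Other genes of the imprinted loci and of IGF signalling could be named in part. Of 56 further imprinted genes listed, 7 could be named. In control, 5 of them passed an edgeR adjusted p below 0.05 as lower in brain than in spinal cord (20.4% of all genes), including Cobl, an actin nucleator (-0.91), H13, a signal peptide peptidase (-0.29), and Slc38a4, an amino acid transporter (-2.20 on the log2 scale). In SMA, 3 of the 7 passed as lower in brain (19.5% of all genes), namely Cobl (-0.87), H13 (-0.48) and Phlda2, a gene that restrains growth of the placenta and which had no count in any SMA brain library, so that it was at least 2.38-fold lower there against a floor of 3 counts a library. The median log2 fold change of the 7 was -2.20 in control and -0.87 in SMA, the latter also with Phlda2 at its bound. In SMA against control, Slc38a4 alone of the 7 passed the thresholds of the study in brain (0.74 ± 0.28, SE, edgeR p 0.0204, adjusted p 0.902), where 1.53% of all genes did. In spinal cord 0 of 7 did, where 0.983% of all genes did. In brain Slc38a4 was at 4.27, 4.62 and 2.44 normalized CPM in control and at 6.29, 6.68 and 6.14 in SMA. The genotypes were thus apart there, where they were in 11% of all genes. Slc38a4 was at 78.2 normalized CPM in SMA spinal cord library 1 and at 26.3 in control spinal cord library 3, against 2.44 to 18.7 in the other 10 libraries.

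Of 54 genes of IGF and insulin signalling, 10 could be named. In SMA against control 0 of the 10 passed in either tissue, where 1.53% of all genes did in brain and 0.983% in spinal cord. Their median log2 fold changes were -0.029 in brain and -0.066 in spinal cord, against 0.0014 and -0.0054 over all genes. The median in brain was -0.043 without Igfbp1, whose mean in SMA brain was under the level that 3 counts a library give in control brain. Between the tissues, Map2k1, a kinase of the MAP kinase pathway, was lower in brain in both genotypes (-0.59 in control and -0.44 in SMA). Akt2, a kinase downstream of PI3 kinase, was higher in brain in SMA (0.44, edgeR adjusted p 0.0463), with 0.24 in control (adjusted p 0.173). Of the 10, 7 passed in neither genotype, where 38.4% of all genes passed in control and 36.7% in SMA. Igfbp1, which was among the genes most like H19, had no count in control brain and reached 9.75 and 6.92 normalized CPM in SMA spinal cord library 1 and control spinal cord library 3.

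Compared per kilobase of gene length, the members spanned a wide range of levels, and their order differed between the tissues. Per the paper, gene length covers the exons of all isoforms and not coding sequence alone, so the order of members rests on it. For Ndn the deposited length was 3694 bases, longer than its RefSeq span at chr7:62348277-62349928. In control brain Cdkn1c was the highest, with a mean of 138 ± 11.3 normalized CPM per kilobase (SD, n = 3 libraries), followed by Mest at 95.6 ± 2.27. Ndn at 77.0 ± 10.4 and Dlk1 at 66.1 ± 4.58 came next and overlapped, as did Igf2 at 42.2 ± 4.93 and Grb10 at 41.7 ± 2.53. Plagl1 at 26.5 ± 0.469, Peg3 at 16.6 ± 0.712 and H19 at 0.668 ± 0.740 were apart from their neighbours in the order. SMA brain had the same order of means, in which Igf2 and Grb10 overlapped again, and so did Peg3 at 15.6 ± 0.946 and H19 at 5.57 ± 7.93.

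In control spinal cord Cdkn1c at 96.7 ± 19.04 normalized CPM per kilobase and Mest at 77.9 ± 18.0 were again the highest and overlapped. Igf2 at 54.9 ± 12.2, Ndn at 50.2 ± 6.58 and Dlk1 at 49.2 ± 9.58 overlapped as well, so that Igf2 no longer stood below the other two. Grb10 at 25.9 ± 3.73 and Peg3 at 22.7 ± 2.59 overlapped, and Plagl1 at 16.7 ± 1.76 was below both, the reverse of its place above Peg3 in brain. In SMA spinal cord Peg3 at 22.7 ± 2.05 was again above Plagl1 at 15.3 ± 2.13 in every library. H19 had a mean of 16.2 ± 20.5 in control spinal cord and of 31.2 ± 49.1 in SMA spinal cord, the latter above the means of Grb10, Peg3 and Plagl1 through library 1 at 87.9, and it had no settled place in the order there. Over all 12 libraries the mean of Cdkn1c was above that of 95.5% of all genes. H19 has no annotated protein, and whether its fragments in the monosome fraction were protected by ribosomes was not tested.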

How the data were processed

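Ribosome-protected fragments of 28 to 32 bases were taken by the authors from the 80S fraction of E14.5 tissue (3 libraries a group, biological triplicates per the labels). The authors trimmed reads with cutadapt 4.1, removed rRNA and tRNA reads, aligned with STAR 2.5.3a to GRCm38.p6 allowing up to 5 alignments a read, removed duplicates and filtered genes by FPKM. The deposited table holds raw counts per gene and, as its other column, gene length in bases. The counting tool and its use of strand were not given in the sources used here, and reads shared with near-identical sequence may be split.

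Members and gene lists were chosen with earlier results of these data known. Members were matched by Ensembl identifier, and other genes by the 1999 names at hand in a supplementary table. The text names the 10 listed genes, listed genes by count (with values where a result turned on them), and the 5 named genes and 1 unnamed gene most like H19. Library totals ran from 3683842 to 12793955 counts. Counts of all 10481 genes were fitted with edgeR 4.0.16 (R 4.3.3, limma 3.58.1), with TMM factors, estimateDisp, glmQLFit and glmQLFTest within the libraries compared, 2-sided, and adjusted p-values are Benjamini-Hochberg values over all genes. The SE was taken as the unshrunken log2 fold change over the root of its F statistic, and intervals span 1.96 SE. SMA against control was called at the thresholds of the study, tissues and the interaction at an adjusted p below 0.05. Levels are CPM with TMM factors of all 12 libraries. Simulated counts of all 10481 genes were drawn with 1 spread for all genes. In them, 98.5% of 200 genes changed 2-fold were recovered in brain, 97% in spinal cord, 90% between control tissues and 80% between SMA tissues. Unchanged genes that passed the thresholds of the study numbered 100 in brain and 514 in spinal cord, against 160 and 103 of all genes in the measured counts. H19 varied more than that 1 spread allows for, so these shares do not speak for H19. Alternatives were DESeq2 1.42.0, other size factors, filterByExpr, robust estimation, a trend on counts per base taken out, 1 fit over 12 libraries, the replicate number as a block and each library left out. Sequences and positions came from RefSeq (GRCm38.p6). Figures were drawn with matplotlib 3.10.9 in Python 3.11.15. A result between the tissues for a gene of the IGF and insulin signalling list is not reported here.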

Additional observations from a re-analysis of the deposited data

How the results depend on the processing

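With 3 libraries a group, a single library decided several values, and differences of the size of H19 between libraries could not be averaged out. H19 in brain rested on as few as 2 counts a library. Names were at hand for 1999 of 10481 genes, so that most members of each list were not examined. The planned ratio of Meg3 to Dlk1 was not run, since Meg3 was not analysed here. The cause was not tested for the changes that follow, apart from libraries being left out.

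In brain, H19 passed the thresholds of the study in SMA against control with DESeq2, library size alone, upper-quartile factors, filterByExpr, removal of a trend on counts per base and the replicate block, and the count of members was 0 with robust estimation (H19 edgeR p 0.148), 0 in 1 fit over all 12 libraries (p 0.195) and 0 without SMA brain library 1. That last value is also the one without the 3 libraries highest in liver and yolk sac genes, an alternative chosen after seeing the data, under which in SMA against control Igf2 was at -0.077 in brain, and in spinal cord H19 was at -0.65, Igf2 at -0.093 and Dlk1 at 0.095, while the interaction of Peg3 was at -0.074. Cdkn1c in brain turned to -0.066 with that trend removed, and Peg3 in spinal cord to 0.00080 with upper-quartile factors. Counts of members past the threshold stayed at 0 in spinal cord and for the interaction under every alternative run, and between tissues they were 6 to 7 in control and 4 to 6 in SMA with no single library left out.

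With each library left out in turn, the count of members in SMA against control ranged from 0 to 1 in brain, and between tissues from 4 to 8 in control and from 4 to 6 in SMA. Log2 fold changes of SMA over control that changed sign ranged in brain from -0.077 to 0.11 for Igf2, from -0.035 to 0.098 for Cdkn1c and from -0.11 to 0.019 for Grb10. In spinal cord they ranged from -2.51 to 2.81 for H19, from -0.28 to 0.63 for Igf2, from -0.16 to 0.11 for Dlk1, from -0.087 to 0.088 for Peg3 and from -0.21 to 0.13 for Mest. Brain over spinal cord in SMA ranged from -4.94 to 0.89 for H19. Interactions that changed sign ranged from -5.19 to 0.67 for H19, from -0.29 to 0.61 for Igf2, from -0.015 to 0.26 for Dlk1, from -0.20 to 0.0038 for Grb10 and from -0.28 to 0.045 for Mest. The log2 ratio of H19 to Igf2 in spinal cord, SMA minus control, ranged from -1.39 to 0.75. Of the 10 genes most like H19, 4 remained with a mean of at least 10 normalized CPM, 3 with brain libraries alone and 3 with spinal cord libraries alone.

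The labels number the libraries of each group from 1 to 3, and nothing in them says that a number marks a shared embryo or litter. Deviations from the group means correlated between -0.51 and 0.70 for same-numbered libraries of the genotypes in spinal cord, and between -0.14 and 0.0041 in brain. For unlike numbers they correlated between -0.77 and 0.56 in spinal cord and between -0.10 and 0.098 in brain. Between the tissues, same-numbered libraries correlated from -0.0096 to 0.13 in control and from 0.092 to 0.30 in SMA. Those of unlike number correlated from -0.16 to 0.041 in control and from -0.25 to 0.18 in SMA. Whether tissues of the same number came from 1 embryo was not tested, and the numbers were not taken to pair the libraries. With the replicate number as a block, Dlk1 in SMA against control in spinal cord turned to 0.0017, and H19 passed in brain against spinal cord in SMA (log2 fold change -2.20, edgeR adjusted p 0.000609), which made 6 members there. H19 in SMA against control in brain, which passed the thresholds of the study in both fits, had a log2 fold change of 3.04 ± 0.38 (SE) and an edgeR adjusted p of 0.00437 with the block, against 0.902 without it. The block changed no other call of a member.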
